A study of Rattus norvegicus with 9 samples.

Results

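Chemokine receptors of myeloid cells, together with a receptor that most leukocytes share, were described in rat peripheral blood mononuclear cells, the nucleated blood cells that remain once most red cells and granulocytes have been removed. The set named 7 genes, Ccr1, Ccr2, Ccr3, Cx3cr1, Cxcr1, Cxcr2 and Cxcr4, chosen as a family and matched by gene symbol. 6 of the 7 were found among 22077 genes, and Ccr2 was not analysed here. The study sequenced RNA of wild-type Sprague-Dawley rats in 3 groups of 3 libraries: Sugen-hypoxia at day 28, Sugen-hypoxia at day 56, and normoxia at day 0. Sugen-hypoxia (SuHx) pairs a blocker of VEGF receptors with a spell of low oxygen and is used to model pulmonary arterial hypertension, and the title of the study concerns the aryl hydrocarbon receptor in that disease. All rats carried the wild-type genotype, and neither the age of the animals nor any pooling is given in the labels. The only controls were taken at day 0, so treatment, day and age cannot be told apart. The labels do not say that replicates came from separate animals, so the p-values below speak only to how far the samples of a group vary, and that variation may be technical.

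Chemokine receptors are G protein-coupled receptors through which leukocytes sense gradients of secreted chemokines and leave the marrow, enter tissue or stay in place. Receptors of the inflammatory CC chemokines and of fractalkine mark monocyte and eosinophil populations, receptors of the CXC chemokines with an ELR motif steer neutrophils, and Cxcr4 binds Cxcl12 on nearly all leukocytes. In pulmonary hypertension, perivascular monocytes and macrophages are a known feature of the diseased lung.

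The libraries held 22148400 to 39947430 exon reads. The 5 most abundant genes were globin-locus genes and accounted for 43.0% to 56.3% of exon reads in normoxia, 1.42% to 29.0% at day 28 and 40.5% to 44.4% at day 56. Intron reads made up 5.37% to 14.6% of the reads in genes in normoxia, 14.2% to 24.9% at day 28 and 11.9% to 16.9% at day 56. Normoxia replicate 1 stood apart, with an intron share of 14.6%, whereas normoxia replicates 2 and 3 had 6.60% and 5.37%. The file headers number normoxia replicate 1 next to day 56 replicate 1 and apart from all other libraries. They number the day 28 libraries in a run of their own. What these numbers mean is not given. Counts are given below as exon reads and as CPM, exon reads brought to a common library size with the trimmed mean of M values (TMM). In bulk RNA, fewer cells of a type and less RNA per cell cannot be told apart.

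Ccr3 was the only receptor of the set whose level passed the test, and it was lower at day 56 than in normoxia. Ccr1 was highest at day 28 and lowest at day 56, Cxcr4 was highest at day 56, and neither difference passed. Cxcr1 was all but undetected. 5 of the 6 receptors had enough reads for the test, edgeR's quasi-likelihood test with Benjamini-Hochberg adjustment over 12447 genes, and Cxcr1 did not.

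In the comparison of day 28 with normoxia, 0 of the 5 receptors passed an adjusted p of 0.05, where 0.129% of all genes did (0.0884% higher and 0.0402% lower). Ccr1 and Ccr3 were under an unadjusted p of 0.05, 2 of 5 against 28.8% of genes, and DESeq2 called 1, Ccr3, against 13% of genes. The groups did not overlap for 1 receptor, Ccr3, which was lower, as were 11.8% of all genes. The median log2 fold change was 0.78 over the 5 receptors and -0.0058 over all genes.

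In the comparison of day 56 with normoxia, 1 of the 5 receptors, Ccr3, passed, where 7.12% of all genes did (3.42% higher and 3.7% lower). Ccr1 and Ccr3 were under an unadjusted p of 0.05, against 30.9% of genes, and DESeq2 called 1, Ccr3, against 18.4% of genes. Ccr1 and Ccr3 lay below normoxia with no overlap, as did 14.9% of genes, and Cxcr4 lay above it, as did 15.6%. The median log2 fold change was 0.028 over the 5 receptors and -0.045 over all genes.

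Between day 56 and day 28, 0 of the 5 receptors passed, where 0.546% of all genes did. 1 receptor, Ccr1, was under an unadjusted p of 0.05, against 18.5% of genes, and DESeq2 called it, against 8.13% of genes. Ccr1 and Cx3cr1 lay lower at day 56 with no overlap, as did 17.4% of genes, and Cxcr4 lay higher, as did 17.8%. The median log2 fold change was -0.75 over the 5 receptors and -0.014 over all genes. The 3 comparisons share libraries, so their results are not independent of each other.

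**Figure D1:**
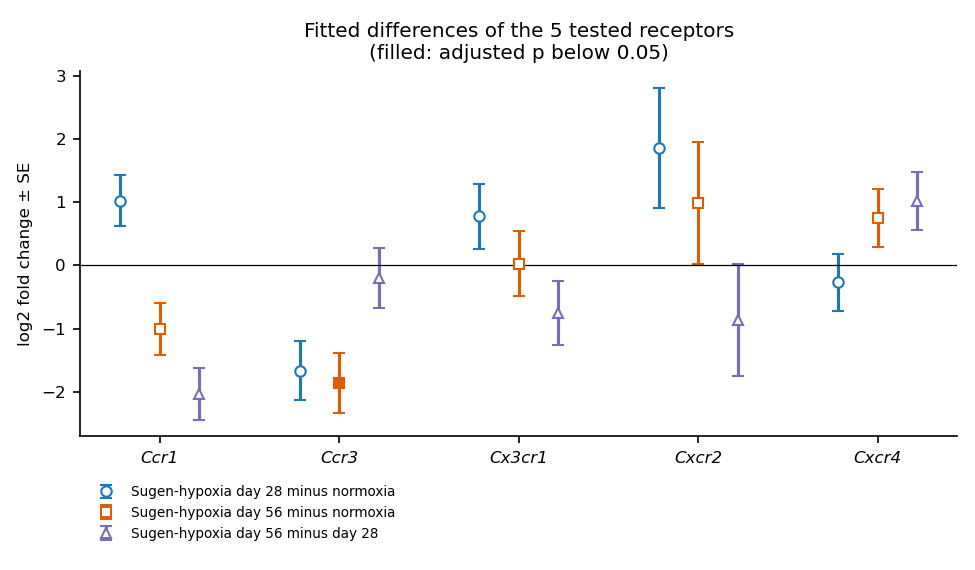
Fitted log2 fold change ± SE (vertical axis) of the 5 tested receptors (horizontal axis) in the 3 comparisons, from edgeR over all 9 libraries. The filled marker is the 1 difference with an adjusted p under 0.05, Ccr3 at day 56 against normoxia, at -1.86. Ccr1 has opposite signs at day 28 (1.03) and day 56 (-1.003).

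Ccr3 is the receptor of the eotaxins, which in rodents and humans draws eosinophils and basophils. The gene (ENSRNOG00000006736) lies on rn6 chromosome 8 from 133029624 to 133040997, with 3 exons and 3256 bases of exon. It had 68, 65 and 44 exon reads in normoxia replicates 1, 2 and 3, then 31, 36 and 25 at day 28 and 35, 6 and 19 at day 56. These counts correspond to 2.83, 2.39 and 2.86 CPM in normoxia, to 0.824, 0.914 and 0.800 CPM at day 28 and to 1.31, 0.252 and 0.637 CPM at day 56. All 6 SuHx libraries therefore lay below all 3 normoxia libraries, and the day 28 libraries lay close together while those of day 56 spread widely. At day 56 Ccr3 averaged 0.731 ± 0.533 CPM against 2.69 ± 0.261 CPM in normoxia (SD, n = 3 each), with a fitted log2 change of -1.86 (SE 0.47, adjusted p = 0.0471 by edgeR), and so fell. At day 28 it averaged 0.846 ± 0.0602 CPM, a log2 fold change against normoxia of -1.66 (SE 0.46, adjusted p = 0.0927), which did not pass. Between day 56 and day 28 the log2 fold change of Ccr3 was -0.20 (SE 0.48, adjusted p = 0.870), with overlapping groups.

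The call of Ccr3 at day 56 rested on few reads and on most of the libraries. It was past the threshold in 7 of 19 alternative settings, with an adjusted p from 0.00238 to 0.208 and a log2 fold change below 0 in all 19. Without normoxia replicate 2 or 3 the adjusted p was 0.126 or 0.141, without day 28 replicate 1, 2 or 3 it was 0.0784, 0.0660 or 0.0630, and without day 56 replicate 2 or 3 it was 0.121 or 0.164. It stayed called without normoxia replicate 1 (0.0248) and without day 56 replicate 1 (0.0332), and without normoxia replicate 1 the day 28 difference also passed (0.0362). Many genes passed without normoxia replicate 1. Of 12694 tested, 2914 were higher and 2818 lower at day 28, and 2768 higher and 2685 lower at day 56. In the main fit 426 genes were called higher and 460 lower at day 56. Without normoxia replicate 2 the numbers were 61 and 32, and without replicate 3 they were 78 and 41. Without day 56 replicate 2 they were 67 and 18, and without its replicate 3 they were 77 and 32. Without day 28 replicate 1, 2 or 3 they were 231 and 173, 317 and 250 or 335 and 304.

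Markers of the cells that Ccr3 marks were set beside it. Of 14 markers of eosinophils, basophils and mast cells, 13 were found and 9 tested, and edgeR called 0 of them in any comparison. At an unadjusted p under 0.05, 1 was higher and 2 lower at day 28 and 2 were higher and 1 lower at day 56 against normoxia, with 0 between the days. DESeq2 called 1 higher and 2 lower at day 28, 1 lower at day 56 and 0 between the days. In the same order, 28.8%, 30.9% and 18.5% of all genes were under that unadjusted p, and DESeq2 called 13%, 18.4% and 8.13%. Their summed level ran from 1009 to 5679 CPM in normoxia, from 39.7 to 670 CPM at day 28 and from 939 to 1841 CPM at day 56. Alox15, a lipoxygenase that other blood cells also express, made up nearly all of that sum in normoxia and at day 56, with 994 to 5663 CPM in normoxia. It had 17.4, 57.9 and 655 CPM at day 28. Summed erythroid markers ran from 3303 to 8575 CPM in normoxia, 127 to 2001 CPM at day 28 and 3806 to 4324 CPM at day 56. The part of red cell RNA in the level of Alox15 was not tested. The granule protein genes that define eosinophils were close to the floor: Epx did not exceed 0.402 CPM in any library, Prg2 did not exceed 0.504 CPM and Prg3 did not exceed 0.0649 CPM, and the mast cell tryptase Tpsb2 had 0 reads. Il5ra, the interleukin 5 receptor of eosinophils, was at 1.34, 1.22 and 0.436 CPM at day 56 and 1.96, 6.66 and 3.96 CPM in normoxia, with a fitted log2 change of -2.08 (SE 0.55, adjusted p = 0.0523). Other markers of the list went the other way. Prg2 was at 0.448, 0.504 and 0.335 CPM at day 56 against 0.0833, 0.221 and 0.195 CPM in normoxia. Gata2 was at 1.31, 2.10 and 2.18 CPM at day 56 against 1.33, 0.589 and 0.714 CPM in normoxia. The part of these cells in the difference of Ccr3 was not tested.

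Ccr1 binds Ccl3, Ccl5 and related inflammatory chemokines and is carried by monocytes and, in rodents, by neutrophils. Its gene (ENSRNOG00000006715) lies near Ccr3 on rn6 chromosome 8, from 132996648 to 133002201, with 2 exons and 1846 bases of exon. Ccr1 had 188, 123 and 116 exon reads in normoxia, 293, 881 and 319 at day 28 and 93, 95 and 73 at day 56. On the CPM scale these were 7.83, 4.53 and 7.53 in normoxia, 7.79, 22.4 and 10.2 at day 28 and 3.47, 3.99 and 2.45 at day 56. Day 28 replicate 2 was the highest library by far, day 28 replicate 1 lay within the normoxia range, and all 3 day 56 libraries lay below every other library. The day 56 mean was 3.30 ± 0.786 CPM against 13.5 ± 7.81 CPM at day 28 (SD, n = 3 each), with a fitted log2 change of -2.03 (SE 0.41, unadjusted p = 0.000697, adjusted p = 0.0705 by edgeR). Against the normoxia mean of 6.63 ± 1.83 CPM (SD, n = 3), the log2 fold change of Ccr1 was 1.03 at day 28 (SE 0.40, adjusted p = 0.142) and -1.003 at day 56 (SE 0.41, adjusted p = 0.134). None of these differences passed.

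The difference of Ccr1 between the days lay near the threshold: it was below 0 in all 19 alternatives and passed in 6 of them. Those were no filter on low counts (adjusted p = 0.0485), only the libraries of the days compared (0.0447), DESeq2 (0.000204), total exon reads without TMM factors (0.0248), and the fits without normoxia replicate 1 (0.0334) or without day 28 replicate 3 (0.0475). Between the days, total exon reads called 118 genes higher and 2482 lower, against 53 and 15 in the main fit. With only the libraries of the days compared, 380 were higher and 210 lower. Without normoxia replicate 1 there were 580 higher and 422 lower. Without day 28 replicate 2 the log2 fold change was -1.45 between the days and 0.44 at day 28 against normoxia.

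**Figure D2:**
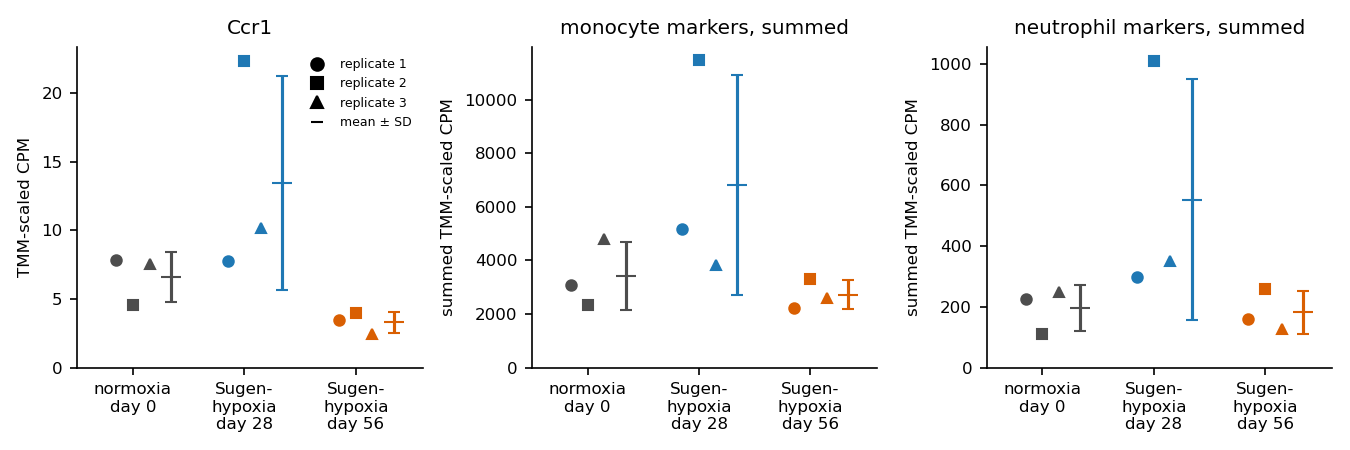
Ccr1 (left, TMM-scaled CPM) beside the summed CPM of 15 monocyte markers (middle) and 14 neutrophil markers (right) in each library, grouped by normoxia day 0, SuHx day 28 and SuHx day 56, with mean ± SD. Day 28 replicate 2 is the highest library in all 3 panels, at 22.4, 11503 and 1011 CPM.

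Monocyte and neutrophil markers were set beside Ccr1. The 15 monocyte markers found summed to 5157, 11503 and 3818 CPM at day 28 and to 2244, 3318 and 2611 CPM at day 56, against 3102, 2340 and 4801 CPM in normoxia. Lyz2, the lysozyme of myeloid cells, made up 8606 CPM of the sum in day 28 replicate 2. Of the 13 tested, edgeR called 0 at day 28, where 10 were higher at an unadjusted p under 0.05 (28.8% of all genes in either direction) and DESeq2 called 9 higher (13% of all genes in either direction). Their median log2 fold change was 1.34 at day 28 against normoxia and -1.21 at day 56 against day 28. Between day 56 and day 28 edgeR called 0, with 8 lower at an unadjusted p under 0.05 (18.5% of all genes) and 7 called lower by DESeq2 (8.13% of all genes). The 14 neutrophil markers summed to 298, 1011 and 351 CPM at day 28 and 160, 259 and 126 CPM at day 56, against 228, 110 and 249 CPM in normoxia, and the defensin Np4 had 0 reads. The ficolin Fcnb made up 717 CPM of this sum in day 28 replicate 2. Of the 12 neutrophil markers tested, edgeR called 0 at day 28, with 5 higher at an unadjusted p under 0.05 and 3 called higher by DESeq2. Between day 56 and day 28 edgeR called 0 of them, 2 were higher and 2 lower at an unadjusted p under 0.05, and DESeq2 called 1 higher and 1 lower. Their median log2 fold change was 1.02 at day 28 against normoxia and -0.21 between the days. At day 56 against normoxia edgeR called 1 monocyte marker, Nr4a1, and 2 neutrophil markers, Il1r2 and Mmp9, all higher, while Ccr1 was lower. Of all genes, 3.42% were called higher in that comparison. The part of monocyte or neutrophil number in the level of Ccr1 was not tested.

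The 250 bases before the start of Ccr1 and of Ccr3, from RefSeq on GRCr8, are shown because Ccr3 was the receptor that passed the test and Ccr1 lies near it. They lie at chr8:132439267-132439516 on the minus strand for Ccr1 and at chr8:132499999-132500248 on the plus strand for Ccr3. Capitals mark matches on either strand to 6 short motifs. These were GAGGAA for the myeloid factor PU.1, AGATAA for the GATA family, TGANTCA for the dimer AP-1, ACGTG for the core of hypoxia response elements, GGGCGG for the GC box and TATAAA for the TATA box.
Ccr1: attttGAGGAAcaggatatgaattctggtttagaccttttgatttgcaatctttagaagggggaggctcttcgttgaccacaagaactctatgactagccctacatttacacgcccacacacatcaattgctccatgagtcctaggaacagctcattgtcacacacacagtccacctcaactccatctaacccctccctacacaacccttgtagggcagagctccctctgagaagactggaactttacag
Ccr3: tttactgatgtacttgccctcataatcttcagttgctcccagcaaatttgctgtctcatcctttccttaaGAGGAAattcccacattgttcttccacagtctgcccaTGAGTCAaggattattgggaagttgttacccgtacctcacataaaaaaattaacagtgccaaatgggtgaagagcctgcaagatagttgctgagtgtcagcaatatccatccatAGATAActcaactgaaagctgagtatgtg
Ccr1 held 1 match, the PU.1 core, whose first base lay 245 bases before the start. Ccr3 held the PU.1 core from 180 bases before, the AP-1 motif from 143 bases before and the GATA motif from 29 bases before. Of 33469 rat promoters of this length, 23.3% held the PU.1 core, 10.3% the GATA motif and 6.34% the AP-1 motif. The hypoxia core was in 16.6% of promoters, and in none of the 6 receptors these letters were found in this window. No matches overlapped in Ccr1 or Ccr3, and a match describes letters only.

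Cx3cr1, the fractalkine receptor of patrolling monocytes and of NK cells, passed in none of the 3 comparisons in the fit over all libraries. The gene (ENSRNOG00000018509) lies on rn6 chromosome 8 from 128740755 to 128754514, with 2 exons and 1326 bases of exon. It had 830, 153 and 186 exon reads in normoxia, 1118, 1071 and 1024 at day 28 and 398, 411 and 633 at day 56. The corresponding levels were 34.6, 5.63 and 12.1 CPM in normoxia, 29.7, 27.2 and 32.7 CPM at day 28 and 14.8, 17.3 and 21.2 CPM at day 56. Normoxia replicate 1 was the highest of the 9 libraries and normoxia replicate 2 the lowest, so the SuHx libraries of both days lay inside the normoxia range. Every day 56 library lay below every day 28 library. The log2 fold change was 0.78 at day 28 (SE 0.51, adjusted p = 0.318) and 0.028 at day 56 (SE 0.51, adjusted p = 0.976) against normoxia, and -0.75 between day 56 and day 28 (SE 0.51, adjusted p = 0.492). The comparisons with normoxia depended on each normoxia library. Without replicate 1 the log2 fold change was 1.81 at day 28 (adjusted p = 0.00241) and 1.05 at day 56 (adjusted p = 0.0226). Without replicate 2 it was 0.34 at day 28 and -0.40 at day 56. Without replicate 3 it was 0.56 and -0.18, and neither of these fits passed. With only the libraries of the days compared, day 56 against day 28 passed (log2 fold change -0.75, adjusted p = 0.0476), and on total exon reads without TMM factors day 28 against normoxia passed (log2 fold change 1.53, adjusted p = 0.0496). The latter scaling called 6981 of 12447 genes higher and 149 lower at day 28. The fit with only the libraries of the days compared called 380 genes higher and 210 lower at day 56 against day 28. Without normoxia replicate 1 the number of all genes called also grew, to 2914 higher and 2818 lower at day 28 against 11 higher and 5 lower with it. At day 56 against normoxia the number grew to 2768 higher and 2685 lower, against 426 and 460. Replicate 1 had the highest intron share in its group, and the part of this in the spread of Cx3cr1 was not tested.

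Cxcr2, the neutrophil receptor of Cxcl1 and Cxcl2, was sparse. Its gene (ENSRNOG00000014269) lies on rn6 chromosome 9 from 81427729 to 81434102, with 5 exons and 1319 bases of exon. It had 24, 3 and 6 exon reads in normoxia, 21, 156 and 29 at day 28 and 50, 19 and 10 at day 56. In CPM it stood at 1.00, 0.110 and 0.389 in normoxia, 0.558, 3.96 and 0.927 at day 28 and 1.87, 0.798 and 0.335 at day 56. The groups overlapped in all 3 comparisons, and day 28 replicate 2, the library with the most neutrophil marker reads, was the highest. The log2 fold change was 1.86 at day 28 (SE 0.95, adjusted p = 0.218) and 0.99 at day 56 (SE 0.97, adjusted p = 0.513) against normoxia, and -0.87 between day 56 and day 28 (SE 0.89, adjusted p = 0.673). Without day 28 replicate 2 the first of these was 0.56 and the last turned to 0.43. At day 28 its mean was 1.82 ± 1.87 CPM (SD, n = 3), so the spread was as wide as the level, and on total exon reads without TMM factors the day 28 difference from normoxia passed (log2 fold change 2.71, adjusted p = 0.0372). That scaling called 6981 of 12447 genes higher and 149 lower at day 28.

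Cxcr1, the other neutrophil receptor of this pair, lies near Cxcr2 on rn6 chromosome 9, from 81466331 to 81469274 (ENSRNOG00000048239, 3 exons, 1469 bases of exon). It had 1 exon read in all, in normoxia replicate 3, and 0 reads in every SuHx library. A count of 0 over the 3 libraries of a group allows up to 0.0277 CPM at day 28 and up to 0.0373 CPM at day 56, at a limit of 3 counts that covers counting error only. No fold is given, since all groups were at or under that limit.

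**Figure D3:**
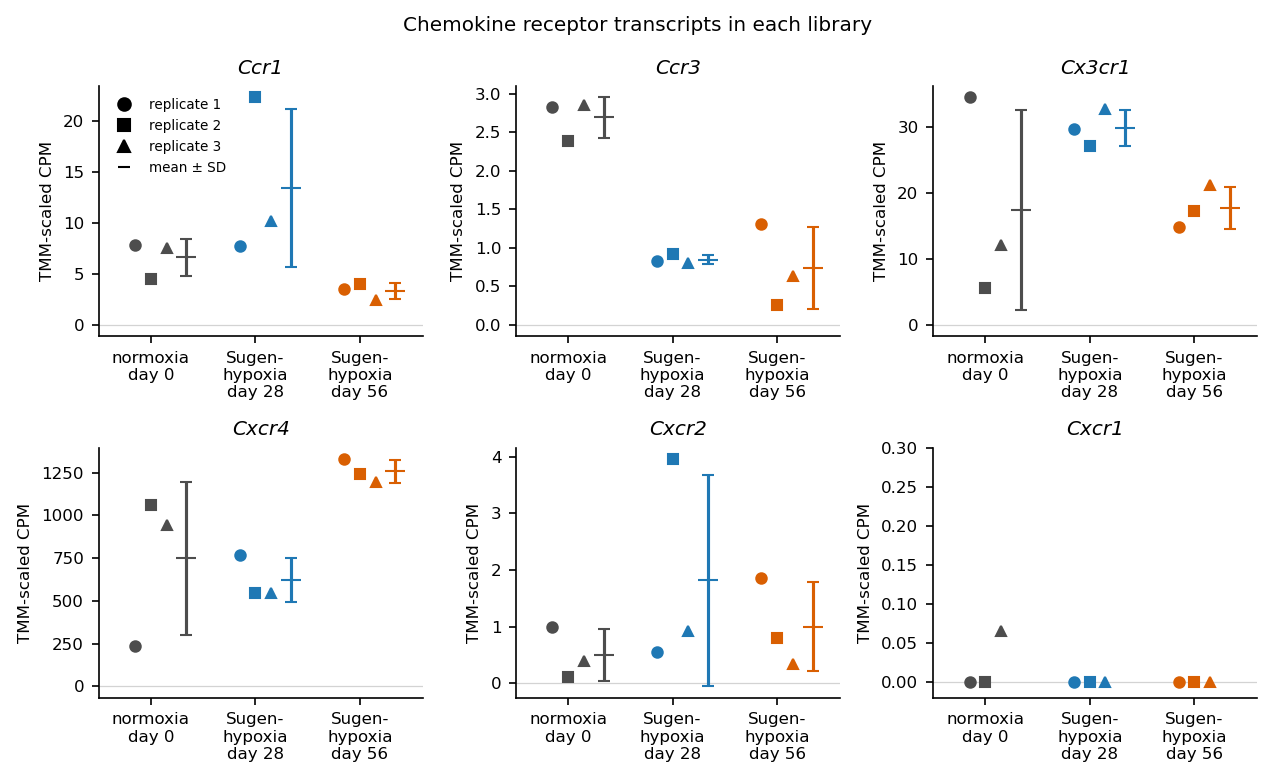
TMM-scaled CPM (vertical axes, each panel on its own scale) of the 6 receptors in each library, grouped by normoxia day 0, SuHx day 28 and SuHx day 56, with symbols for the replicate and bars for mean ± SD (not drawn for Cxcr1). All SuHx points of Ccr3 lie below its normoxia points, at most 1.31 CPM against at least 2.39 CPM, while normoxia replicate 1 is the highest point of Cx3cr1 (34.6 CPM) and the lowest of Cxcr4 (237 CPM).

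Cxcr4, the Cxcl12 receptor that holds leukocytes in the marrow and guides them back to it, was the most abundant receptor of the set. Its gene (ENSRNOG00000003866) lies on rn6 chromosome 13 from 45314932 to 45318878, with 7 annotated exons and 1749 bases of exon. Exon reads numbered 5682, 28884 and 14543 in normoxia, 28895, 21560 and 17081 at day 28 and 35673, 29618 and 35750 at day 56. Scaled, these were 237, 1063 and 944 CPM in normoxia, 768, 547 and 546 CPM at day 28 and 1331, 1245 and 1198 CPM at day 56. The day 56 libraries were the 3 highest of the 9 and close together, while normoxia replicate 1 was the lowest and stood far from the other normoxia libraries. At day 56 Cxcr4 averaged 1258 ± 67.2 CPM against 748 ± 447 CPM in normoxia (SD, n = 3 each), with a fitted log2 change of 0.75 (SE 0.46, adjusted p = 0.285). Against the day 28 mean of 621 ± 128 CPM (SD, n = 3) the log2 fold change at day 56 was 1.02 (SE 0.46, adjusted p = 0.277). Between day 28 and normoxia it was -0.27 (SE 0.46, adjusted p = 0.703), with overlapping groups. None of the 3 passed.

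Normoxia replicate 1 weighed on Cxcr4 as well. Without it the log2 fold change was 0.34 at day 56 against normoxia (adjusted p = 0.131), 1.01 between day 56 and day 28 (adjusted p = 0.0178) and -0.67 at day 28 against normoxia (adjusted p = 0.0115). Of 12694 genes tested without normoxia replicate 1, 2914 were called higher and 2818 lower at day 28 against normoxia. Between the days 580 were called higher and 422 lower. With only the libraries of the days compared, day 56 against day 28 passed at an adjusted p of 0.0327. That fit called 380 of all genes higher and 210 lower. The sign at day 28 against normoxia was not stable: it was 0.077 without normoxia replicate 2, 0.56 in a fit that includes each library's intron share, 0.90 on total exon reads without TMM factors and 0.028 on totals without the globin genes.

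Reads in the introns of Cxcr4 were counted separately by the authors and were not tested here. They numbered 741, 1187 and 771 in normoxia, 3341, 3016 and 1321 at day 28 and 5245, 4431 and 4894 at day 56. On the library scale of the exon reads, they averaged 182 ± 16.2 CPM at day 56 and 69.2 ± 24.2 CPM at day 28, against 41.5 ± 9.76 CPM in normoxia (SD, n = 3 each). All 3 day 56 libraries lay above all others, and the lowest normoxia library in exon reads, replicate 1, was also the lowest in intron reads. Intron reads were 12.0% to 13.0% of the reads in Cxcr4 at day 56 and 7.18% to 12.3% at day 28, against 3.95% to 11.5% in normoxia. The intron share over all genes was 11.9% to 16.9% at day 56 and 14.2% to 24.9% at day 28, against 5.37% to 14.6% in normoxia, and was highest at day 28 rather than day 56. Its part in the intron reads of Cxcr4 was not tested.

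**Figure D4:**
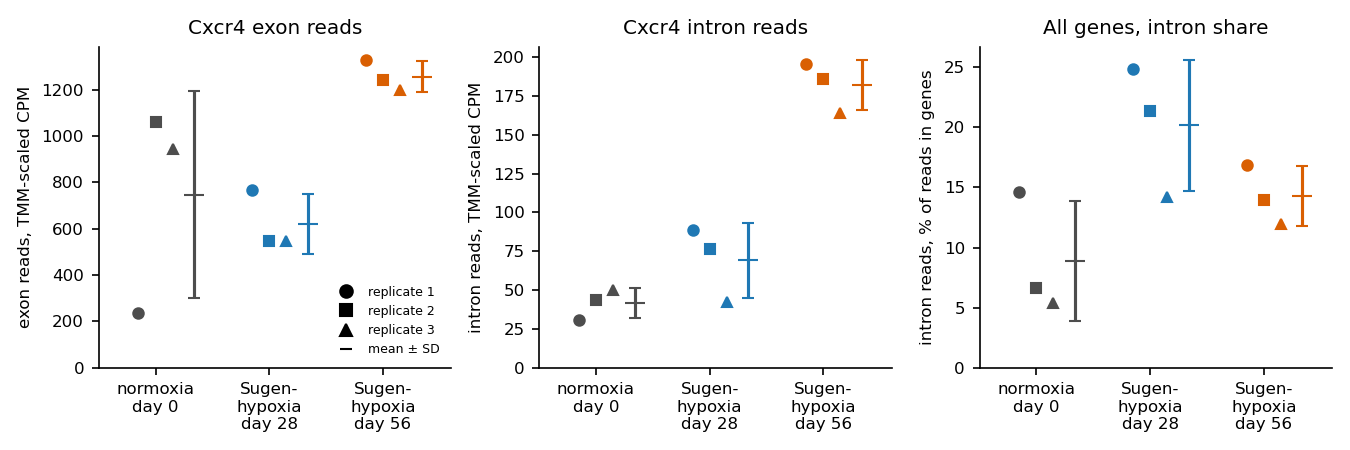
Exon reads of Cxcr4 (left) and intron reads of Cxcr4 (middle), both as TMM-scaled CPM, and intron reads of all genes as a percent of reads in genes (right), in each library with mean ± SD, grouped by normoxia day 0, SuHx day 28 and SuHx day 56. The intron reads of Cxcr4 average 182 CPM at day 56, whereas the share over all genes is highest at day 28, where it reaches 24.9%.

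The 250 bases before the start of Cxcr4 (RefSeq, GRCr8, chr13:42634289-42634538, minus strand) are shown because they hold a different set of the motifs than those of Ccr1 and Ccr3.
Cxcr4: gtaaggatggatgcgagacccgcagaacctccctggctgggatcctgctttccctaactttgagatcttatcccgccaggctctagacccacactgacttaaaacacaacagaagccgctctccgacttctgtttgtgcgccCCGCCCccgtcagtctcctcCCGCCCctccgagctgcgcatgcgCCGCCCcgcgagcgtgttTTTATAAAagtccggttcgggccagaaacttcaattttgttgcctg
Capitals mark 3 matches to the GC box, all on the opposite strand, which begin 108, 88 and 64 bases before the start, and a TATA box match on each strand, 44 and 46 bases before it, which overlap one another. The GC box was in 30.5% and the TATA box in 12.9% of the 33469 promoters of this length. In the 250 bases before Cx3cr1, Cxcr1 and Cxcr2 none of the 6 motifs was found.

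Levels of different receptors were compared per length, as CPM per kilobase of exon. In normoxia Cxcr4 averaged 428, Cx3cr1 13.1, Ccr1 3.59, Ccr3 0.827 and Cxcr2 0.379 CPM per kilobase. At day 28 the means were 355 for Cxcr4, 22.5 for Cx3cr1, 7.29 for Ccr1, 1.38 for Cxcr2 and 0.260 for Ccr3. At day 56 they were 719 for Cxcr4, 13.4 for Cx3cr1, 1.79 for Ccr1, 0.758 for Cxcr2 and 0.225 for Ccr3. Cxcr4, Cx3cr1 and Ccr1 kept this order at all 3 times. Ccr3 stood above Cxcr2 in normoxia and below it at both SuHx days by mean, but their libraries overlapped in normoxia and at day 56. At day 28 no neighbours in the order overlapped, and at day 56 Ccr1 also overlapped with Cxcr2.

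**Figure D5:**
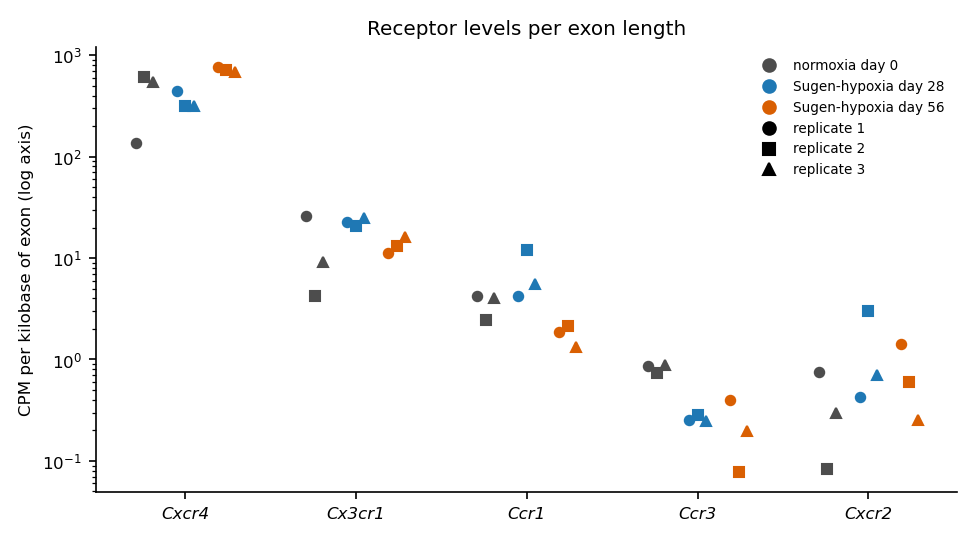
CPM per kilobase of exon on a log axis for the 5 receptors with over 1 read, with colours for normoxia day 0, SuHx day 28 and SuHx day 56 and symbols for the replicate. Cxcr4 lies above all other receptors in every library, from 135 CPM per kilobase upwards, and Ccr3 and Cxcr2 share the lowest range.

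The genes whose levels ran most like each receptor were named by the Pearson correlation of log2 CPM over the 9 libraries, as a description, since all points share their libraries, depth and scaling. For Ccr1 they were Atp6v1a (r = 0.987), a subunit of the vacuolar proton pump, Efcab14 (0.976) and Mefv (0.972), which encodes the inflammasome sensor pyrin. Mefv averaged 16.0 CPM in normoxia, 29.6 CPM at day 28 and 9.34 CPM at day 56. For Ccr3 they were Stard6 (0.958), Zfp518a (0.957) and Pus7l (0.946). For Cx3cr1 they were Plec (0.967), which encodes the cytoskeletal linker plectin, Spn (0.966), which encodes the leukocyte sialoprotein CD43 and is among the monocyte markers used here, and Ccdc97 (0.963). For Cxcr2 they were the neutrophil collagenase Mmp8 (0.918), a neutrophil marker here, Armh3 (0.913) and Cd47 (0.912), and in counts as sparse as those of Cxcr2 such a value carries little weight. For Cxcr4 they were Ccdc59 (0.966), Fdxacb1 (0.965) and Rgs1 (0.962), an activator of G protein GTPases that damps chemokine receptor signals. Rgs1 averaged 86.5 CPM in normoxia, 86.0 CPM at day 28 and 181 CPM at day 56.

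The other genes of the system were described from lists of their roles. Of 23 ligands of the 7 receptors, 20 were found and 11 tested, and at day 56 against normoxia 3 rose and 0 fell by edgeR, where 3.42% of all genes were called higher and 3.7% lower. Ccl3, a ligand of Ccr1, had 137, 217 and 220 CPM at day 56 against 16.0, 47.5 and 40.6 CPM in normoxia, and its log2 fold change was 2.46 (SE 0.56, adjusted p = 0.0348). Ccl4, which shares receptors with Ccl3, had 107, 125 and 163 CPM at day 56 against 6.96, 17.8 and 21.2 CPM in normoxia (log2 fold change 3.11, SE 0.56, adjusted p = 0.0183). Cxcl2, a ligand of Cxcr2, had 3.06, 2.23 and 4.39 CPM at day 56 against 0, 0.294 and 0.260 CPM in normoxia (log2 fold change 4.13, SE 0.81, adjusted p = 0.0232). In these 3 ligands every day 56 library lay above every normoxia library, as in 15.6% of all genes, while Ccr1 lay below and Cxcr2 overlapped. The median log2 fold change of the 11 ligands was 0.69, against -0.045 over all genes. At day 28 against normoxia edgeR called 0 ligands, with 4 higher and 2 lower at an unadjusted p under 0.05 and 3 called higher by DESeq2. Between day 56 and day 28 it called 0, with 3 higher and 2 lower at an unadjusted p under 0.05, and DESeq2 called 3 higher and 1 lower. The share of all genes under that p was 28.8% at day 28 and 18.5% between the days. DESeq2 called 13% and 8.13% of all genes in these comparisons. Cxcl12, the ligand that gives Cxcr4 its role above, had at most 4 exon reads in any library, and Cx3cl1, fractalkine, at most 4. Mif, also on the ligand list, was not sparse. It averaged 9.77 CPM at day 28 and 16.8 CPM at day 56, against 14.8 CPM in normoxia. Its adjusted p by edgeR was 0.117 at day 28 and 0.558 at day 56 against normoxia, and 0.0972 between the days.

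Of 16 other chemokine receptors, 15 were found and 12 tested. At day 56 against normoxia Ccr4 and Ccr8, receptors of T helper 2 and regulatory T cells, rose and Ccr6, the Ccl20 receptor of B cells and T helper 17 cells, fell. Ccr4 averaged 15.8 ± 2.77 CPM at day 56 against 5.02 ± 0.840 CPM in normoxia (SD, n = 3 each), and its log2 fold change was 1.66 (SE 0.32, adjusted p = 0.0219). Ccr8 averaged 2.34 ± 0.546 CPM at day 56 against 0.338 ± 0.197 CPM in normoxia (log2 fold change 2.79, SE 0.47, adjusted p = 0.0148). Ccr6 averaged 4.65 ± 1.02 CPM at day 56 against 14.5 ± 5.56 CPM in normoxia (log2 fold change -1.64, SE 0.40, adjusted p = 0.0411). In that comparison 4 of 7 B cell markers were lower at an unadjusted p under 0.05, where 30.9% of all genes were under it. The part of B cell number in the level of Ccr6 was not tested. The median log2 fold change of the 12 was 0.028. Ccr4 and Ccr8 were also higher at day 56 than at day 28, by log2 fold changes of 2.19 (SE 0.32, adjusted p = 0.0291) and 2.94 (SE 0.46, adjusted p = 0.0325). At day 28 against normoxia edgeR and DESeq2 called 0 of these receptors, with 1 higher and 1 lower at an unadjusted p under 0.05. Of all genes, 28.8% were under that p at day 28. edgeR called 3.42% of all genes higher and 3.7% lower at day 56 against normoxia, and 0.426% higher between the days.

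Among 29 genes of receptor signalling and trafficking, 28 were found and 27 tested, and Rgs16, an activator of G protein GTPases like Rgs1, was the only one that edgeR called. DESeq2 called 2 higher at day 56 against normoxia, and 2 higher and 1 lower between the days. Rgs16 averaged 4.64 ± 1.19 CPM at day 56, against 1.46 ± 0.350 CPM at day 28 and 1.74 ± 0.279 CPM in normoxia (SD, n = 3 each). Its log2 fold change was 1.42 against normoxia (SE 0.30, adjusted p = 0.0271) and 1.67 against day 28 (SE 0.29, adjusted p = 0.0455). At day 28 against normoxia edgeR called 0. At an unadjusted p under 0.05, 8 were higher and 1 lower, where 28.8% of all genes passed in either direction. DESeq2 called 6 higher, against 13% of all genes in either direction. Of 14 other chemoattractant receptors, all found and 10 tested, S1pr1, the sphingosine phosphate receptor that lets lymphocytes leave lymphoid organs, rose at day 56, to 573 ± 144 CPM against 264 ± 32.3 CPM in normoxia (SD, n = 3 each; log2 fold change 1.12, SE 0.28, adjusted p = 0.0435). edgeR called 0 of these 10 at day 28 against normoxia and 0 between the days. At an unadjusted p under 0.05, 4 were higher and 2 lower at day 28 and 1 was higher and 2 lower between the days, and DESeq2 called 3 higher at day 28 and 2 lower between the days. The share of all genes under that p was 28.8% at day 28 and 18.5% between the days. DESeq2 called 13% of all genes at day 28, 18.4% at day 56 against normoxia and 8.13% between the days. For edgeR the share was 7.12% at day 56 against normoxia and 0.546% between the days.

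The calls of these 8 list genes at day 56 against normoxia depended on single libraries and, for some, on the fit. Each of the 8 was lost without normoxia replicate 2, normoxia replicate 3, day 56 replicate 2 or day 56 replicate 3, with adjusted p-values from 0.0552 to 0.160. Ccl3, Ccr4, Ccr6, Cxcl2, Rgs16 and S1pr1 were also lost without day 56 replicate 1, and Ccl3, Ccr6 and S1pr1 without day 28 replicate 1. Ccr6 was further lost without day 28 replicate 2 (0.0582) and S1pr1 without day 28 replicate 3 (0.0555). With each library's intron share in the fit, all but Ccr6 were lost. Without normoxia replicate 2 the number of all genes called at day 56 was 61 higher and 32 lower, against 426 higher and 460 lower with it. Between the days, Ccr4, Ccr8 and Rgs16 were each lost without day 28 replicate 2 or any 1 day 56 replicate, with adjusted p-values from 0.0845 to 0.151. Ccr8 and Rgs16 were also lost without day 28 replicate 1 (0.108 and 0.147) or normoxia replicate 3 (0.0557 and 0.0718), and Rgs16 without normoxia replicate 2 (0.0643). With the replicate block, Rgs16 was lost in both comparisons (0.0533 against normoxia and 0.0559 between the days) and S1pr1 against normoxia (0.0587). With only the groups compared, S1pr1 was lost (0.0628). On total exon reads without TMM factors, Ccr6 (0.232) and S1pr1 (0.0851) were lost against normoxia and Rgs16 (0.0517) between the days. On totals without the globin genes, Ccr6 (0.0894) and S1pr1 (0.0577) were lost against normoxia, and Ccr4 (0.0538), Ccr8 (0.0594) and Rgs16 (0.0594) between the days. Rgs16 was also lost between the days with the intron share in the fit (0.104).

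Markers of other blood cells gave the makeup of the samples as far as RNA shows it. Summed T cell markers ran from 1437 to 1517 CPM in normoxia, 1110 to 1802 CPM at day 28 and 1475 to 1849 CPM at day 56. B cell markers ran from 950.2 to 1691 CPM in normoxia, 527 to 935 CPM at day 28 and 452 to 751 CPM at day 56, and NK cell markers from 476 to 758 CPM, 327 to 655 CPM and 735 to 910.4 CPM in the same order. Platelet markers ran from 793 to 3501 CPM, 604 to 955 CPM and 2014 to 4013 CPM, and erythroid markers from 3303 to 8575 CPM, 127 to 2001 CPM and 3806 to 4324 CPM. Of these 5 lists, edgeR called 1 T cell marker higher and 1 B cell marker lower at day 56 against normoxia, and 0 in every other comparison. At an unadjusted p under 0.05, 8 of 9 erythroid markers and 9 of 9 platelet markers tested were lower at day 28 than in normoxia, and DESeq2 called 6 and 8 of them lower. Of all genes, 28.8% were under that p in either direction and DESeq2 called 13%. Under it at day 56 against normoxia, 4 of 7 B cell markers were lower, and 3 NK cell and 2 T cell markers were higher. DESeq2 called 3, 1 and 1 of them (30.9% and 18.4% of all genes). Between the days 5 NK cell, 6 erythroid, 7 platelet and 1 T cell markers were higher, and DESeq2 called 3, 4, 6 and 1. The shares of all genes were 18.5% and 8.13%. At day 56 against normoxia edgeR called 3.42% of all genes higher and 3.7% lower. All T cell, B cell and NK cell markers found had reads in every library, as did 13 of the 15 monocyte markers, beside red cell and platelet RNA. The other monocyte markers were Cd163, with 0 reads in 7 of 9 libraries, and Ms4a7, with 0 reads in day 56 replicate 2.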

How the data were processed

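The authors deposited 1 table for the series. Its columns, per the file headers, hold exon read counts, uniquely mapped exon read counts, intron read counts and RPKM for every Ensembl gene in each library, the RPKM scaled by the authors. In some columns a fraction on a broken line makes the deposited values formally estimated counts, but all intact lines hold whole counts, so nothing was rounded. The RPKM values are quoted only in the closing section. Per the submitters' processing notes, FastQC was used and the genome build was rn6; the aligner is not given in the sources used here. Per the labels' protocols, RNA was purified from Trizol lysates on columns with a DNase step. Of 22085 lines, 22077 held intact genes, and 4 genes broken over 8 lines were left out. A further 87 columns of values were not used.

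Exon counts were tested with edgeR 4.0.16 in R 4.3.3 (robust glmQLFit, glmQLFTest, TMM factors, filterByExpr with a minimum count of 10), with 1 mean per group over all 9 libraries and Benjamini-Hochberg adjustment at 0.05 over 12447 genes. The common biological coefficient of variation was 0.280. The pipeline was tested on simulated data. Alternatives were RLE factors, DESeq2 1.42.0, other filters, uniquely mapped reads, only the groups compared, the replicate number as a block, the intron share as a covariate and leaving out each library. 2 further scalings were chosen after seeing the data. All exon reads of the 6 receptors were uniquely mapped. No pair of replicates agreed within sampling noise.

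The text names the 7 receptors whatever their result, for each tested receptor the 3 genes most correlated with it, and the called genes of 4 lists (ligands, other chemokine receptors, G protein signalling and trafficking, other chemoattractant receptors), up to 6 a list and comparison. Marker lists covered monocytes, neutrophils, eosinophils with basophils and mast cells, T cells, B cells, NK cells, erythroid cells and platelets. Members and lists were chosen with earlier results of these data known. Promoters of all 6 receptors came from RefSeq on GRCr8. Coordinates of genes are those of the file on rn6. Floors account for counting error alone, because PCR copies of a molecule are counted like separate molecules.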

Additional observations from a re-analysis of the deposited data

Results flagged for a closer look

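The means of Ccr1 lay on opposite sides of the normoxia mean at the SuHx days, although neither difference from normoxia passed (adjusted p = 0.142 at day 28 and 0.134 at day 56) and day 28 replicate 1 lay within the normoxia range. Each day 28 library lay above the normoxia mean and each day 56 library lay below it. The difference between day 56 and day 28 was itself tested, with a log2 fold change of -2.03 and an adjusted p of 0.0705 by edgeR, and did not pass.

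Intron reads, which the tests above did not use, exceeded normoxia in several places. For Ccr1 they averaged 2.14 CPM at day 28 against 0.817 CPM in normoxia, all 3 day 28 libraries being above all normoxia libraries. The margin was narrow: day 28 replicate 1 had 1.20 CPM from 45 reads, and normoxia replicate 1 had 1.17 CPM from 28 reads. For Cxcr2 they averaged 0.286 CPM at day 28 and 0.208 CPM at day 56, against 0.0216 CPM in normoxia, from at most 22 reads a library. For Cxcr4 they averaged 182 CPM at day 56 against 41.5 CPM in normoxia. For Ccr3, day 28 replicate 3 had 97 intron reads and 25 exon reads, or 79.5% intron reads, whereas no other library had more than 6 intron reads of this gene. Over all genes, the intron share ran from 5.37% to 14.6% in normoxia. It was 14.2% to 24.9% at day 28 and 11.9% to 16.9% at day 56. How many of all genes had intron reads above normoxia in this way was not counted. None of these intron differences was tested, and their cause was not tested.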

How the results depend on the processing

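Each member value was recomputed under 19 alternatives. Of 285 recomputed log2 fold changes of members, 10 changed sign, none of them in a difference that had passed. For Cxcr4 at day 28 against normoxia these were 0.077 without normoxia replicate 2 (range -0.67 to 0.077 over single libraries left out), 0.56 in the fit with each library's intron share, 0.90 on total exon reads without TMM factors and 0.028 on totals without the 5 globin genes. For Cx3cr1 at day 56 against normoxia they were -0.17 with the intron share and -0.40, -0.18 and -0.12 without normoxia replicate 2, normoxia replicate 3 and day 56 replicate 3 (range -0.40 to 1.05). Between the days they were 0.19 for Ccr3 without day 56 replicate 2 (range -0.90 to 0.19) and 0.43 for Cxcr2 without day 28 replicate 2 (range -1.69 to 0.43). The number of receptors called at day 28 against normoxia was 0, and became 1 with DESeq2 and 3 on total exon reads without TMM factors. At day 56 against normoxia it was 1 and became 0 with only the groups compared, with the intron share, on total exon reads and on totals without the globin genes. Between the days it was 0 and became 1 without a filter, 3 with only the groups compared, 1 with DESeq2 and 1 on total exon reads. With only the groups compared, 380 of all genes were called higher and 210 lower between the days, against 53 and 15 in the main fit. Leaving out 1 library gave 0 to 3, 0 to 2 and 0 to 2 receptors in the 3 comparisons. The highest number in each came without normoxia replicate 1. Of 12694 genes, that fit called 2914 higher and 2818 lower at day 28 against normoxia. It called 2768 and 2685 at day 56 against normoxia, and 580 and 422 between the days. The cause was not tested.

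Total exon reads without TMM factors, a scaling chosen after seeing the data as was that without the globin genes, moved the median of all genes by 0.98, 0.29 and -0.68 in the 3 comparisons. It turned the split of all called genes to 6981 higher and 149 lower at day 28, against 11 and 5. Totals without the globin genes moved it by 0.19, 0.13 and -0.06. Of 456 recomputed list counts, 99 moved, either by over 1.5 times or to or from 0. Same-numbered libraries deviated together with correlations of -0.146 to 0.167. With 3 libraries a group, these values cannot decide whether samples of the same number share more than that number. With the replicate block the receptors called at day 56 were 0 in place of 1 (Ccr3, adjusted p = 0.0569), and the count stayed 0 in the other comparisons. Ccr3 had 6 to 68 and Cxcr2 3 to 156 reads a library, and Cxcr1, with 1 read in all, cannot be compared.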

Other observations

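On the scale of the authors' deposited RPKM, which no test here used, the receptors had the following levels. Ccr3 averaged 0.276 ± 0.0400 RPKM at day 28 and 0.164 ± 0.119 RPKM at day 56, against 0.527 ± 0.145 RPKM in normoxia (SD, n = 3 each). Ccr1 averaged 7.78 ± 4.80 RPKM at day 28 and 1.32 ± 0.344 RPKM at day 56, against 2.31 ± 0.982 RPKM in normoxia (SD, n = 3 each). Cxcr4 averaged 380 ± 108 RPKM at day 28 and 527 ± 34.9 RPKM at day 56, against 249 ± 129 RPKM in normoxia (SD, n = 3 each), so its day 28 mean lay above that of normoxia, whereas on the TMM-scaled CPM it lay below.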
